A study of Danio rerio with 3 samples.

Results

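Transcripts that nearly all neurons carry were followed in whole zebrafish larvae in which serpini1, the gene of the protease inhibitor neuroserpin, was raised or lowered. The set is a fixed list of 42 symbols of pan-neuronal and synaptic vesicle genes, and 40 of them matched the symbol column of the deposited tables, out of 24555 genes in all. The study measured RNA of whole larvae of the AB strain at 7 days post fertilization by sequencing, with 1 library per group, each from 30 pooled larvae. The Tg(serpini1) larvae carried a driver labelled huc:teton:gal4 and a responder labelled tre:serpini1:mkate2, which place serpini1 and a red fluorescent protein under the promoter of huc, an older name of elavl3, a gene of neurons. The serpini1-/- larvae were homozygous mutants by their title, but their genotype field uses transgene notation, and the sources used here do not give the lesion. The control larvae were wild type. All 3 groups were kept in 40 µg/mL doxycycline, the drug that switches the Tet-On system, from day 3 to day 7. A group with driver and mKate2 but no added serpini1 is not among the 3, so effects of these parts and of serpini1 cannot be told apart. With 1 library per group no difference has a replicate check, and no test between groups was run. The inferred depths lay between 7740000 and 7980000 fragments.

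Expression is given in FPKM, the deposited level, in which fragments are divided by the length of the transcript and by the library's mapped total. Folds are ratios of FPKM, followed in parentheses by a 95% interval that covers counting error only, from reads estimated with the inferred depth. Log2 ratios are log2((FPKM + 1) / (FPKM + 1)), a scale that understates the ratios of low genes, and the 1.2-fold and 2-fold rules below are set on that scale. Serpini1 itself stood at 288 FPKM in Tg(serpini1), 8.05 in serpini1-/- and 20.04 in control larvae, so its transcript followed the labels while the mutant still held some of it. One FPKM value per gene cannot tell transgene reads from those of the native locus.

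Elav-like RNA-binding proteins appear as neurons leave the cell cycle and are the classic marks of a differentiated neuron. At the synapse, vesicles loaded with transmitter are held by synapsins, sense calcium through synaptotagmin and fuse when a vesicle SNARE (vamp) zips up with SNAREs of the plasma membrane (snap25, syntaxin), under the control of complexins (cplx), after which nsf takes the SNARE complex apart. Stathmins, tubulins, microtubule-associated proteins and neurofilaments build the axon and dendrites. In larval zebrafish these genes mark the brain, spinal cord, retina and peripheral ganglia.

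The members were well expressed in all 3 libraries. In control larvae, 35 of the 40 stood at 10 FPKM or more and 12 at 50 FPKM or more. The highest was the stathmin gene stmn1b at 203 FPKM, rank 337 among all 24555 genes, and the alpha-tubulin gene tuba1c was next at 199 FPKM. Summed over the 39 members with a value in every library, the level was 1535 FPKM in Tg(serpini1), 1668 in serpini1-/- and 1750 in control larvae. The Tg(serpini1) sum was the lowest and the control sum the highest. The remaining member, the syntaxin gene stx1a, stood at 0.23 FPKM in Tg(serpini1) and 0.60 FPKM in control larvae and had no serpini1-/- value used here, so it did not reach the 1 FPKM that a comparison required. The other listed symbols, rbfox3a and cplx1, were absent from the symbol columns, but their RefSeq gene identifiers were found under the names rbfox3 and LOC563082. The first, whose product is the neuronal nuclear antigen, stood at 8.92 FPKM in Tg(serpini1), 10.2 in serpini1-/- and 9.69 in control larvae. The complexin gene cplx1 stood at 24.6 FPKM in Tg(serpini1), 29.8 in serpini1-/- and 30.5 in control larvae. They are not counted below.

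**Figure D1:**
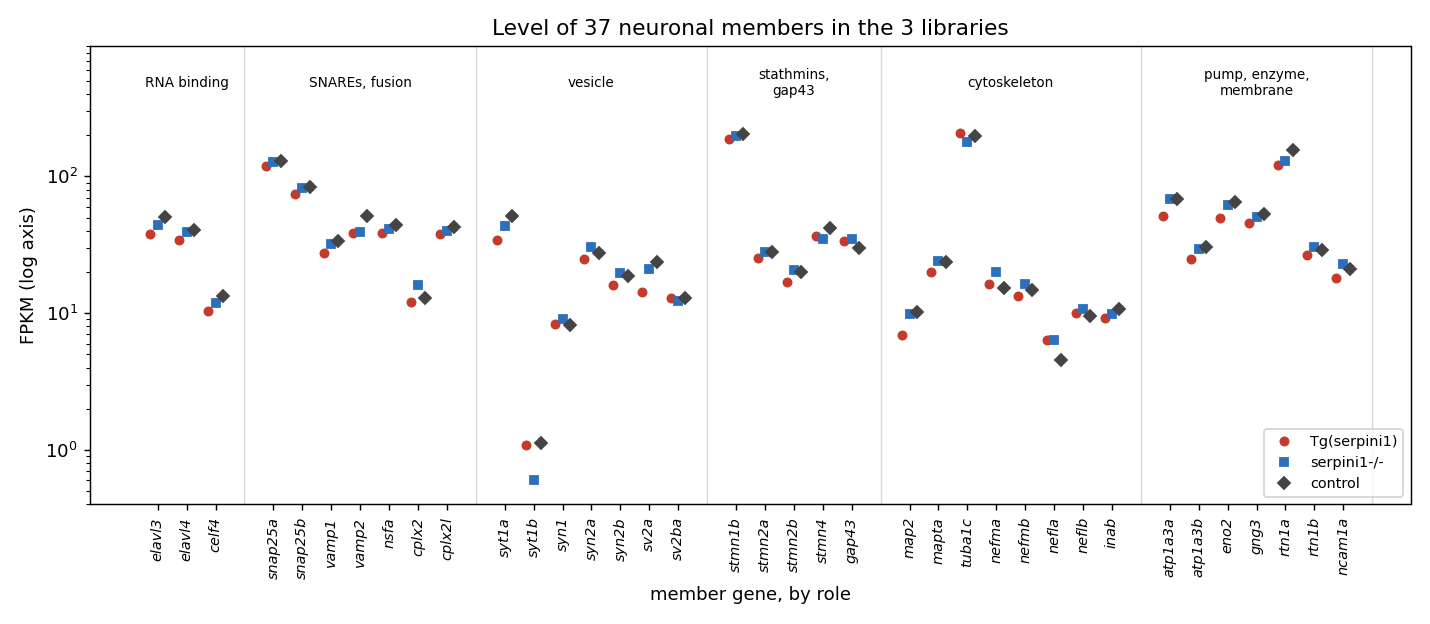
FPKM (log axis) of 37 members that have a value in every library, grouped by role, with circles for Tg(serpini1), squares for serpini1-/- and diamonds for control larvae (1 library each). The points of a gene lie close together next to the range between genes, from 0.60 FPKM for syt1b in serpini1-/- to 209.5 FPKM for tuba1c in Tg(serpini1), and the circle is most often the lowest of the 3.

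The first comparison asked how these neuronal genes stood in Tg(serpini1) against control larvae. Most were lower in Tg(serpini1) by small amounts. The largest differences were in sv2a, syt1a and map2, which were 1.49-fold to 1.65-fold lower, while the neurofilament gene nefla was 1.39-fold higher. Of the 39 members compared, 33 had a log2 ratio below 0, against 47.2% of the 19242 genes compared, and their median was -0.20, against 0.03 for all genes. At 1.2-fold or more, 12 members were lower and 1 was higher, against 23.4% and 29.1% of all genes. No member was 2-fold lower or higher, against 1.26% and 3.56% of all genes. The counting interval lay below a ratio of 1 for 22 members and above it for 1, against 20.2% and 23.4% of all genes. Such intervals narrow as reads rise, and most members are abundant, while all genes include many low ones. These counts and shares are therefore not like for like. In RNA of whole larvae, fewer neurons and less of these transcripts per neuron cannot be told apart. FPKM is also relative to the library's mapped total, so it depends on the RNA of all other tissues, whose part was not tested.

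**Figure D2:**
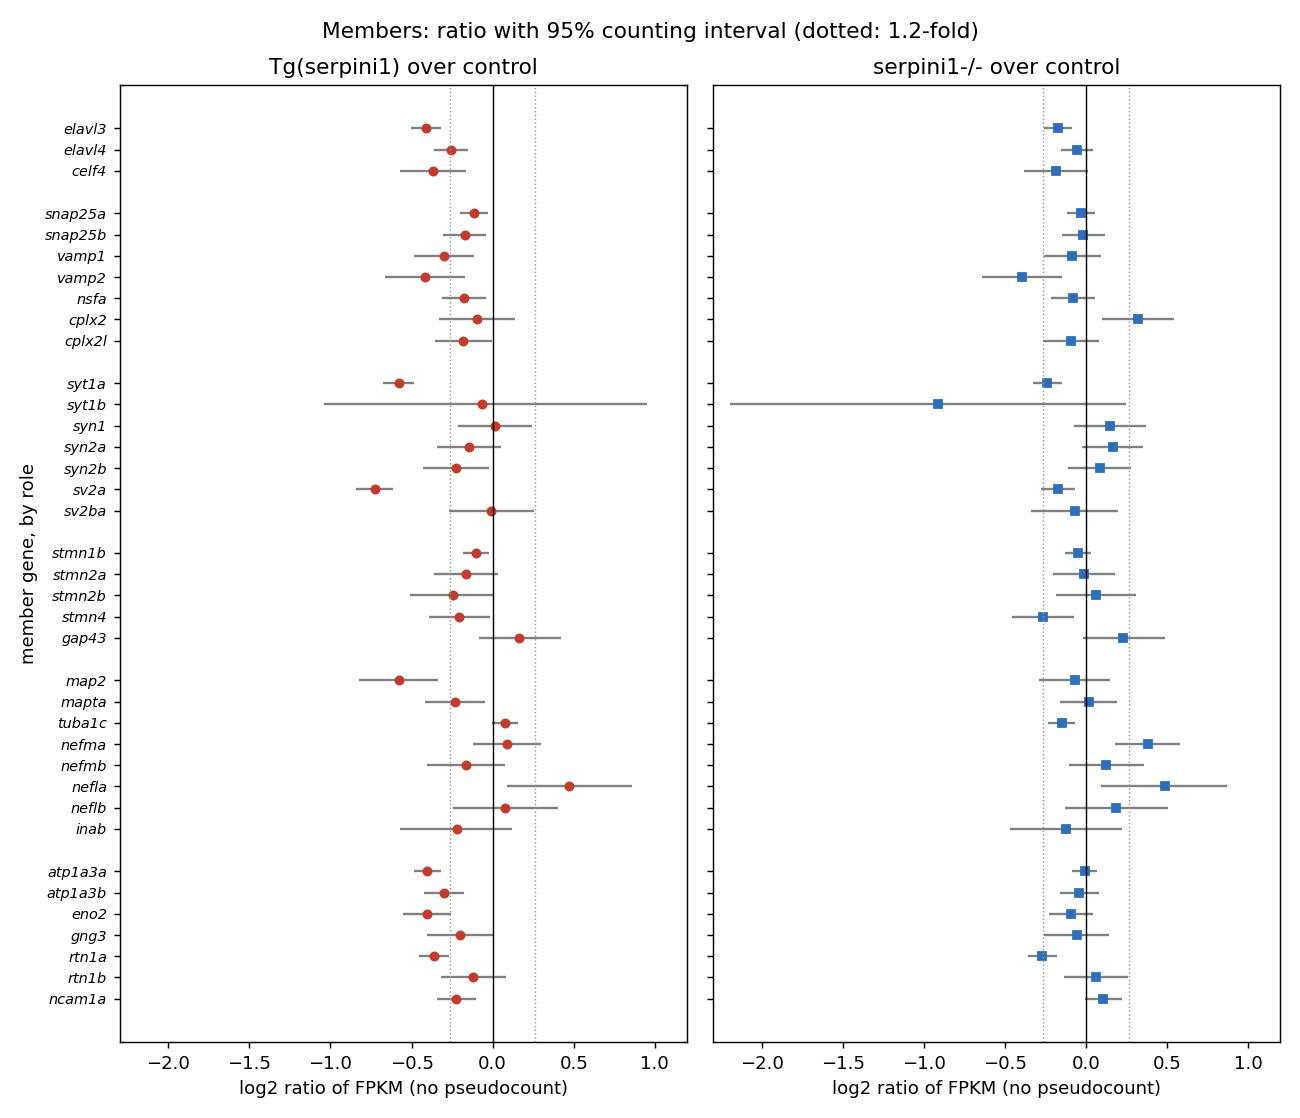
Log2 ratio of FPKM for each of 37 members, without pseudocount, with its 95% counting interval, for Tg(serpini1) over control larvae at left and serpini1-/- over control larvae at right; dotted lines mark 1.2-fold. At left 31 of 37 points lie below 0 with sv2a lowest, and at right the points lie on both sides with nefla and nefma highest and syt1b, with few reads, lowest.

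All 3 RNA-binding genes found were lower in Tg(serpini1), with a median log2 ratio of -0.34, where 47.2% of all genes were below 0. The gene elavl3, whose promoter drives the transgene, stood at 37.8 FPKM in Tg(serpini1), 44.5 in serpini1-/- and 50.2 in control larvae. It was 1.33-fold lower (1.25 to 1.42) in Tg(serpini1) than in control larvae. Its relative elavl4, which binds AU-rich messages in the same way, stood at 34.1 FPKM in Tg(serpini1), 39.3 in serpini1-/- and 40.8 in control larvae, and was 1.196-fold lower (1.11 to 1.28). The splicing regulator celf4 stood at 10.4 FPKM in Tg(serpini1), 11.8 in serpini1-/- and 13.4 in control larvae and was 1.29-fold lower (1.12 to 1.49). In all 3 genes the serpini1-/- level lay between the others. The intervals of serpini1-/- over control included 1 for elavl4 (0.899 to 1.03) and celf4 (0.766 to 1.01). For celf4, so did that of Tg(serpini1) over serpini1-/- (0.763 to 1.02).

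The SNARE and fusion group had 9 members compared, all of them below 0 in Tg(serpini1) (median -0.17), against 47.2% of all genes. Of the 9, 3 were at least 1.2-fold lower, against 23.4% of all genes. Of the vesicle SNAREs, vamp2 stood at 38.5 FPKM in Tg(serpini1), 39.1 in serpini1-/- and 51.4 in control larvae, which was 1.34-fold lower (1.13 to 1.58) in Tg(serpini1) than in control larvae. The Tg(serpini1) and serpini1-/- levels of vamp2 were alike and both lay under control. The paralog vamp1 stood at 27.4 FPKM in Tg(serpini1), 31.8 in serpini1-/- and 33.7 in control larvae and was 1.23-fold lower (1.08 to 1.397) in Tg(serpini1). Smaller differences were seen in the abundant membrane SNAREs. For snap25a the levels were 119 FPKM in Tg(serpini1), 127 in serpini1-/- and 129 in control larvae, or 1.08-fold lower (1.02 to 1.15) in Tg(serpini1) than in control. For snap25b they were 74.5 FPKM in Tg(serpini1), 82.98 in serpini1-/- and 83.9 in control larvae, or 1.13-fold lower (1.03 to 1.24). The ATPase gene nsfa, whose product recycles SNAREs, was 1.13-fold lower (1.03 to 1.24). The complexin gene cplx2l was 1.13-fold lower (1.003 to 1.28). For cplx2 the ratio of 0.935 (0.795 to 1.101) included 1.

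Genes of vesicle proteins differed among themselves in Tg(serpini1). The largest difference among all members was that of sv2a, a glycoprotein of the vesicle membrane that modulates release, which stood at 14.3 FPKM in Tg(serpini1), 20.99 in serpini1-/- and 23.6 in control larvae. It was 1.65-fold lower (1.53 to 1.79) in Tg(serpini1), with serpini1-/- between the others. Its relative sv2ba stood at 12.9 FPKM in Tg(serpini1), 12.3 in serpini1-/- and 12.9 in control larvae, a ratio of 0.995 (0.829 to 1.19). The calcium sensor gene syt1a was next, at 34.4 FPKM in Tg(serpini1), 43.5 in serpini1-/- and 51.3 in control larvae, and it was 1.49-fold lower (1.400 to 1.59) in Tg(serpini1). Both genes had more than 900 estimated reads in every library, so their counting error was small. The duplicate syt1b was close to the floor, at 1.08 FPKM in Tg(serpini1), 0.60 in serpini1-/- and 1.13 in control larvae, with 10 to 19 estimated reads per library. Synapsins, which tether vesicles to actin, differed less. The ratios were 1.01 (0.863 to 1.18) for syn1, 0.904 (0.788 to 1.04) for syn2a and 0.856 (0.744 to 0.986) for syn2b, and of these 3 intervals the one of syn2b lay below 1. As a group, 6 of 7 vesicle genes were below 0 with a median of -0.14, and 2 were at least 1.2-fold lower. Of all genes, 47.2% were below 0 and 23.4% at least 1.2-fold lower.

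Stathmins, which bind free tubulin and are high in growing neurons, were close to control in Tg(serpini1). With gap43, 4 of 5 genes of the group were below 0, against 47.2% of all genes. The group's median was -0.16, and none was past 1.2-fold. The top gene stmn1b stood at 189 FPKM in Tg(serpini1), 196 in serpini1-/- and 203 in control larvae, a ratio of 0.933 (0.883 to 0.987). The ratios were 0.893 (0.778 to 1.02) for stmn2a, 0.843 (0.702 to 1.01) for stmn2b and 0.867 (0.761 to 0.989) for stmn4. The growth cone protein gene gap43 was the 1 member of the group above 0. It stood at 33.5 FPKM in Tg(serpini1), 35.04 in serpini1-/- and 29.9 in control larvae, and its ratio of 1.12 (0.942 to 1.34) included 1.

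Genes of the cytoskeleton were split in Tg(serpini1), with 4 of 8 below 0, against 47.2% of all genes, and a median of -0.04. The dendritic microtubule-associated protein gene map2 stood at 6.89 FPKM in Tg(serpini1), 9.80 in serpini1-/- and 10.3 in control larvae, and was 1.49-fold lower (1.27 to 1.77) in Tg(serpini1). The tau gene mapta, its axonal counterpart, stood at 20.2 FPKM in Tg(serpini1), 23.98 in serpini1-/- and 23.7 in control larvae, and was 1.18-fold lower (1.03 to 1.33). On the other side of control, tuba1c stood at 209.5 FPKM in Tg(serpini1), 179 in serpini1-/- and 199 in control larvae, with a ratio of 1.05 (0.998 to 1.12). The light neurofilament gene nefla, a structural filament of large axons, was the 1 member at least 1.2-fold higher in Tg(serpini1). It stood at 6.33 FPKM in Tg(serpini1), 6.39 in serpini1-/- and 4.56 in control larvae and was 1.39-fold higher (1.06 to 1.81). Its level rests on 140 estimated reads in Tg(serpini1), 137 in serpini1-/- and 98 in control larvae, and the control library is the low one. The ratios were 1.05 (0.846 to 1.32) for neflb, 1.07 (0.921 to 1.23) for nefma, 0.892 (0.756 to 1.05) for nefmb and 0.858 (0.672 to 1.09) for the internexin gene inab, and each interval included 1.

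The 7 genes of the pump, enzyme and membrane group were all below 0 in Tg(serpini1) (median -0.29), against 47.2% of all genes. Of the 7, 4 were at least 1.2-fold lower, against 23.4% of all genes. The neuronal sodium pump gene atp1a3a, which restores ion gradients after firing, stood at 51.7 FPKM in Tg(serpini1), 67.98 in serpini1-/- and 68.4 in control larvae. The Tg(serpini1) library stood alone at the low end, 1.32-fold lower (1.25 to 1.40) than control, with the other libraries alike. Its duplicate atp1a3b stood at 24.8 FPKM in Tg(serpini1), 29.7 in serpini1-/- and 30.6 in control larvae, and was 1.23-fold lower (1.13 to 1.34). The neuronal enolase gene eno2, of glycolysis, stood at 49.4 FPKM in Tg(serpini1), 61.4 in serpini1-/- and 65.5 in control larvae, and was 1.32-fold lower (1.197 to 1.46). The reticulon gene rtn1a, which shapes the endoplasmic reticulum, stood at 121 FPKM in Tg(serpini1), 129 in serpini1-/- and 155 in control larvae, and was 1.28-fold lower (1.205 to 1.37). Here the serpini1-/- library also lay under control. The others were nearer to control, with ratios of 0.869 (0.754 to 1.001) for the G protein subunit gene gng3, 0.921 (0.801 to 1.06) for rtn1b and 0.857 (0.788 to 0.931) for the cell adhesion gene ncam1a.

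Transcript length moved with the Tg(serpini1) ratio in the whole table. The median log2 ratio of Tg(serpini1) over control was 0.20 for genes under 1000 bases, 0.04 from 2000 to under 3000 bases, -0.11 from 5000 to under 7000 bases and -0.18 for 7000 bases or more. For serpini1-/- over control those medians were 0.00, -0.03, -0.04 and -0.05. Several of the lowest members are long, with sv2a at 8817 bases, elavl3 at 5997, syt1a at 5790 and atp1a3a at 5213. Across the 39 members, which share their libraries, Spearman's rho of ratio and length was -0.31, and across all genes -0.22. The median length of the members compared was 2491 bases, against 2353 for all genes. Set against the median of all genes of its own length class, 34 of 39 members were lower in Tg(serpini1), where 50% of all genes are lower by construction, and the median difference was -0.21. On that scale the largest differences were in vamp2 at -0.61, sv2a at -0.51 and eno2 at -0.51. Vamp2 was the 1 member under 1000 bases and stood at -0.41 before its class median was taken off. In serpini1-/- over control it was at -0.39 on the same scale. For some long members less of the difference was left. Ncam1a, 7414 bases long, was at -0.03 against -0.21 without the length classes, and elavl4 at -0.14 against -0.25. The long syn1 was at 0.12 against 0.01. How far length accounts for the ratio of a single member was not tested.

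**Figure D3:**
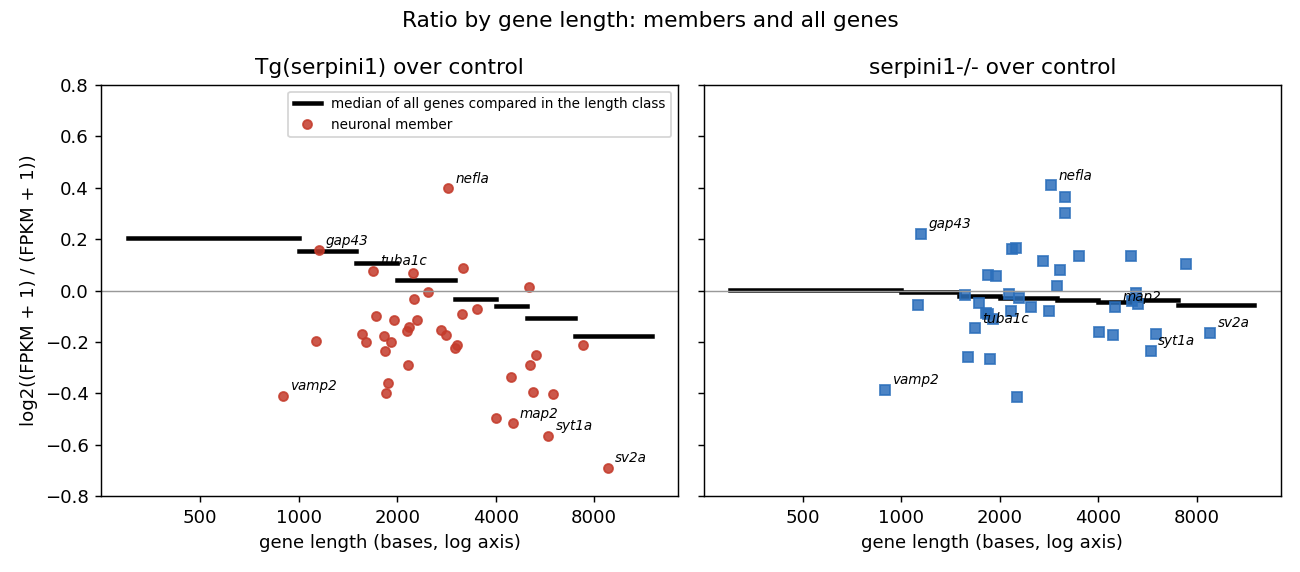
Log2((FPKM + 1) / (FPKM + 1)) of 39 members by gene length (log axis), for Tg(serpini1) over control larvae at left and serpini1-/- over control larvae at right; black bars are medians of all genes compared in 8 length classes, the outer classes drawn with a fixed end. The bars step down with length at left, from 0.20 to -0.18, and stay near 0 at right, and most members lie under the bar at left.

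The second comparison set serpini1-/- against control larvae. Here the members lay on both sides of control, led by neurofilament genes on the higher side and by vamp2 and rtn1a on the lower. Of 39 members, 25 had a log2 ratio below 0, against 54.4% of the 18663 genes compared, with a median of -0.05 against -0.03 for all genes. At 1.2-fold or more, 3 were lower and 3 higher, against 19.7% and 15.8% of all genes, and none was past 2-fold, where 0.664% of all genes were lower and 0.798% higher. Counting intervals lay below 1 for 7 members and above it for 4, against 15.7% and 10.5% of all genes. This contrast again depends on read number. These shares leave out 217 genes at 1 FPKM or more in control that had no serpini1-/- value used here. The serpini1-/- values used end at 0.58 FPKM, so the shares of all genes that were lower may be understated.

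Neurofilament genes led the higher side in serpini1-/-. At the levels given above, nefla was 1.401-fold higher (1.07 to 1.83) than in control. The medium neurofilament gene nefma stood at 16.3 FPKM in Tg(serpini1), 19.9 in serpini1-/- and 15.3 in control larvae, and was 1.305-fold higher (1.13 to 1.498) in serpini1-/-. The partners nefmb and neflb had ratios of 1.09 (0.9301 to 1.28) and 1.14 (0.913 to 1.42), which included 1, as did 0.919 (0.724 to 1.16) for inab. Complexin cplx2, which clamps and then promotes fusion, stood at 12.1 FPKM in Tg(serpini1), 16.1 in serpini1-/- and 12.9 in control larvae. It was 1.25-fold higher (1.07 to 1.46) in serpini1-/-, the high library of the 3. On the lower side, vamp2 was 1.31-fold lower (1.11 to 1.56), rtn1a 1.204-fold lower (1.13 to 1.28), stmn4 1.203-fold lower (1.05 to 1.37) and syt1a 1.18-fold lower (1.11 to 1.25). The members past the 1.2-fold rule were vamp2, rtn1a and syt1b, and stmn4 was just short of it on the scale with 1 FPKM added. Elavl3, sv2a and tuba1c were lower by less, with ratios of 0.886 (0.834 to 0.941), 0.888 (0.827 to 0.955) and 0.903 (0.851 to 0.956). The sodium pump gene atp1a3a and the snap25 genes were nearer to control here, with ratios of 0.994 (0.942 to 1.05) for atp1a3a, 0.981 (0.924 to 1.04) for snap25a and 0.989 (0.902 to 1.08) for snap25b. Both comparisons use the same control library and are not independent of each other, which bears on vamp2, rtn1a and nefla, where that library stands apart from the others.

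Tg(serpini1) was also set directly against serpini1-/- larvae, a comparison without the control library. Of 39 members, 35 were below 0, against 45.7% of the 18775 genes compared, with a median of -0.17 against 0.04 for all genes. At 1.2-fold, 13 were lower and 1 was higher, against 20.4% and 28.6% of all genes. None was past 2-fold, where 1.08% of all genes were lower and 2.86% higher. Counting intervals lay below 1 for 20 members and above it for 1, against 17.1% and 23.3% of all genes. Here too the contrast depends on read number. Genes without a serpini1-/- value are left out of these shares too. Sv2a was 1.47-fold lower (1.36 to 1.597), map2 1.42-fold lower (1.203 to 1.69), cplx2 1.34-fold lower (1.14 to 1.56) and atp1a3a 1.31-fold lower (1.24 to 1.39) in Tg(serpini1) than in serpini1-/-. Of the cytoskeletal genes, nefma was 1.22-fold lower (1.07 to 1.403), while tuba1c was 1.17-fold higher (1.104 to 1.24). For vamp2 and nefla the ratios were 0.984 (0.821 to 1.18) and 0.991 (0.779 to 1.27), which included 1. The member past 1.2-fold on the higher side was syt1b, with 19 estimated reads in Tg(serpini1), 10 in serpini1-/- and a ratio of 1.80 (0.817 to 4.45). Length moved with this ratio too, with a Spearman's rho of -0.60 across the 39 members and -0.19 across all genes. Against the genes of their length class, 36 of 39 members were lower in Tg(serpini1), where 50% of all genes are lower by construction.

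Many of these genes come in pairs left by the genome duplication of teleost fish, and the balance within a pair was compared per length in each library. Snap25a stood over snap25b by a ratio of 1.604 (1.48 to 1.74) in Tg(serpini1), 1.53 (1.42 to 1.65) in serpini1-/- and 1.54 (1.43 to 1.67) in control larvae. The balance of syn2a over syn2b was 1.55 (1.34 to 1.79) in Tg(serpini1), 1.55 (1.36 to 1.77) in serpini1-/- and 1.47 (1.28 to 1.68) in control larvae, and that of atp1a3a over atp1a3b was 2.08 (1.93 to 2.25) in Tg(serpini1), 2.29 (2.13 to 2.45) in serpini1-/- and 2.24 (2.09 to 2.399) in control larvae. In these 3 pairs the intervals of all libraries overlapped. Overlap of separate intervals does not show equal balance, here or in the pairs below, and differences in balance were not tested. Complexin cplx2 stood under cplx2l, at a ratio of 0.3205 (0.277 to 0.371) in Tg(serpini1), 0.403 (0.352 to 0.4596) in serpini1-/- and 0.303 (0.263 to 0.349) in control larvae, and its serpini1-/- interval lay above that of control. Rtn1a over rtn1b was 4.501 (4.03 to 5.03) in Tg(serpini1), 4.24 (3.82 to 4.72) in serpini1-/- and 5.33 (4.79 to 5.93) in control larvae. In this pair the control interval overlapped that of Tg(serpini1) and lay just above that of serpini1-/-, although rtn1a, like cplx2, has several transcripts and a less certain read estimate, described at the end. The light neurofilament pair was led by neflb, with neflb over nefla at 1.58 (1.26 to 1.99) in Tg(serpini1), 1.69 (1.34 to 2.13) in serpini1-/- and 2.08 (1.599 to 2.69) in control larvae, and these intervals overlapped. Syt1a was the dominant synaptotagmin of its pair, with a ratio to syt1b of 31.8 (19.9 to 51.8) in Tg(serpini1), 72.5 (39.5 to 152) in serpini1-/- and 45.4 (28.8 to 75.03) in control larvae, and the few reads of syt1b make these intervals wide. Where copies are near-identical in sequence the authors' counting could split their reads, which was not tested here.

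**Figure D4:**
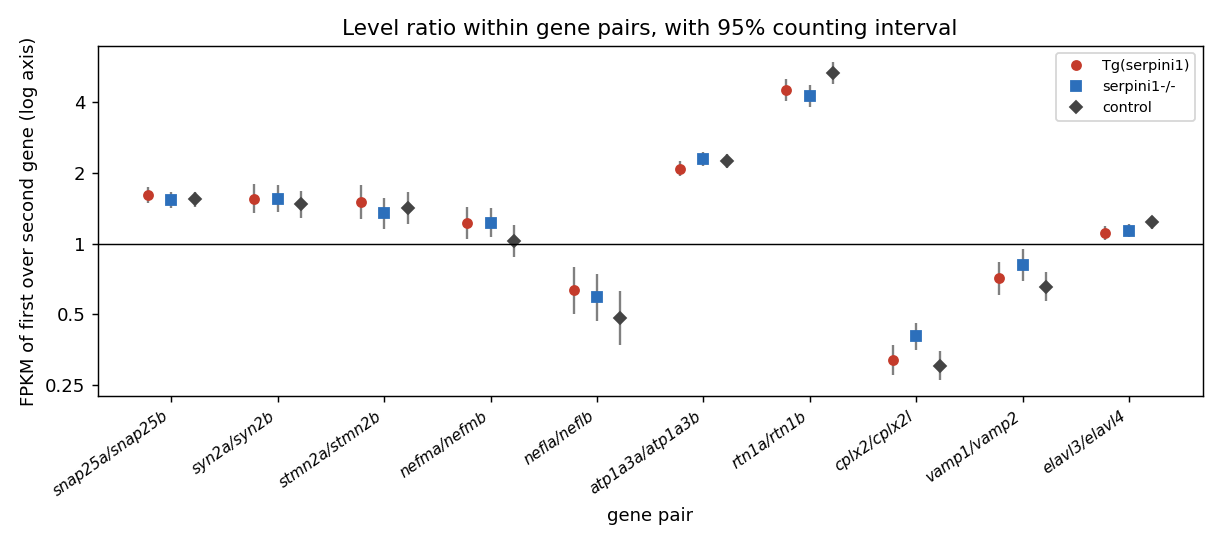
FPKM of the first gene over the second (log axis) in 10 gene pairs, in Tg(serpini1) (circles), serpini1-/- (squares) and control larvae (diamonds), with 95% counting intervals. The 3 points of snap25a/snap25b and syn2a/syn2b lie together, while in rtn1a/rtn1b the control point is the highest, with an interval that overlaps the Tg(serpini1) one.

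Genes outside the set with related roles were read the same way, from lists that were written with earlier results of these data known. Other genes of the presynaptic release machinery had 59 of 69 genes below 0 and a median log2 ratio of -0.30 in Tg(serpini1), while 38 were at least 1.2-fold lower and 6 at least 1.2-fold higher, where 47.2% of all genes were below 0, 23.4% lower and 29.1% higher. Less the median of its length class, the list's median was -0.30. The lowest of those at 5 FPKM or more in control were the synapsin gene syn3, at 3.87 FPKM in Tg(serpini1), 7.12 in serpini1-/- and 7.61 in control larvae, and the complexin gene cplx3b, at 5.38 FPKM in Tg(serpini1), 11.5 in serpini1-/- and 9.94 in control larvae. Syn3 had 17 estimated reads in Tg(serpini1), 31 in serpini1-/- and 33 in control larvae. The highest above the same floor were the endosomal SNARE gene vamp4 and doc2b, a calcium sensor of spontaneous release. Vamp4 stood at 10.4 FPKM in Tg(serpini1), 9.50 in serpini1-/- and 7.72 in control larvae. Doc2b stood at 6.98 FPKM in Tg(serpini1), 5.23 in serpini1-/- and 5.50 in control larvae. The most abundant was the vesicle protein synaptophysin (sypa) at 66.7 FPKM in Tg(serpini1), 73.6 in serpini1-/- and 81.4 in control larvae. In serpini1-/-, 48 of 70 were below 0, against 54.4% of all genes, and the median was -0.06.

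Other pan-neuronal genes had 64 of 89 genes below 0 and a median log2 ratio of -0.25 in Tg(serpini1), with 43 at least 1.2-fold lower and 14 higher, against 47.2%, 23.4% and 29.1% of all genes. Its genes are long, with a median length of 3167 bases, and less its length classes its median was -0.17. Among those at 5 FPKM or more in control, stmn3 and the RNA-binding gene celf5a were lowest. Stmn3 stood at 4.47 FPKM in Tg(serpini1), 9.34 in serpini1-/- and 8.02 in control larvae. Celf5a stood at 4.24 FPKM in Tg(serpini1), 5.34 in serpini1-/- and 7.46 in control larvae. Above the same floor, the thymosin gene tmsb, whose product binds actin monomers, and the pump subunit gene atp1b1b were highest. Tmsb stood at 28.01 FPKM in Tg(serpini1), 19.6 in serpini1-/- and 11.6 in control larvae. It had 63 estimated reads in Tg(serpini1), 43 in serpini1-/- and 25 in control larvae. Atp1b1b stood at 102 FPKM in Tg(serpini1), 65.9 in serpini1-/- and 62.6 in control larvae. RNA of whole larvae does not show which cells these transcripts came from. The most abundant, the brain creatine kinase gene ckbb, was near control at 478 FPKM in Tg(serpini1), 528 in serpini1-/- and 468 in control larvae. In serpini1-/-, 40 of 89 were below 0, against 54.4% of all genes, with a median of 0.03.

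Genes that set a neuron's transmitter had 8 of 10 genes below 0 and a median log2 ratio of -0.28 in Tg(serpini1), against 47.2% of all genes below 0. Among those at 5 FPKM or more in control, the vesicular glutamate transporter genes slc17a6a and slc17a6b were lowest. The first stood at 5.71 FPKM in Tg(serpini1), 8.42 in serpini1-/- and 9.05 in control larvae. The second stood at 9.23 FPKM in Tg(serpini1), 13.8 in serpini1-/- and 13.9 in control larvae. The highest above the same floor were the vesicular acetylcholine transporter gene slc18a3a and the glutamate transporter gene slc17a7a. Slc18a3a stood at 12.7 FPKM in Tg(serpini1), 13.00 in serpini1-/- and 11.8 in control larvae. Slc17a7a stood at 7.14 FPKM in Tg(serpini1), 11.5 in serpini1-/- and 7.76 in control larvae. The GABA-synthesizing enzyme gene gad1b, the most abundant, stood at 45.9 FPKM in Tg(serpini1), 55.5 in serpini1-/- and 59.6 in control larvae. The list of immature neurons had 11 of 28 genes below 0, against 47.2% of all genes, with a median of 0.16 in Tg(serpini1), or 0.09 less the length classes. Set against serpini1-/-, the same list in Tg(serpini1) had 14 genes below 0 and 14 above, where 45.7% of all genes were below 0. Its median there was -0.02. In serpini1-/- over control, 6 were below 0, against 54.4% of all genes, with a median of 0.09. Of the 29 matched genes of this list, 6 are also in the list of other pan-neuronal genes, tmsb and tubb2b among them. Besides tmsb, the list's highest gene above the same floor was the beta-tubulin gene tubb2b. It stood at 166 FPKM in Tg(serpini1), 132 in serpini1-/- and 102 in control larvae. The list's lowest above that floor were the transcription factor genes neurod1 and onecut1. Neurod1 stood at 26.1 FPKM in Tg(serpini1), 34.8 in serpini1-/- and 40.01 in control larvae. Onecut1 stood at 3.78 FPKM in Tg(serpini1), 4.62 in serpini1-/- and 5.64 in control larvae. The most abundant, the growth-arrest gene btg2, stood at 142 FPKM in Tg(serpini1), 126 in serpini1-/- and 150.5 in control larvae.

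Relatives of the members, listed as widely expressed, had 19 of 59 genes below 0 in Tg(serpini1), against 47.2% of all genes. Their median was 0.16, or 0.13 less the length classes, and 5 were at least 2-fold higher, against 3.56% of all genes. Some of the list are genes of particular tissues, and 2, stmn1a and desma, are also in the other pan-neuronal and muscle lists. The list's median was 0.01 in serpini1-/-. The sodium pump gene atp1a1a.2, of ionocytes, stood at 83.2 FPKM in Tg(serpini1), 32.03 in serpini1-/- and 23.8 in control larvae, and was 3.49-fold higher (3.18 to 3.83) in Tg(serpini1), where the neuronal atp1a3a was lower than control. The alpha-tubulin gene tuba8l stood at 179 FPKM in Tg(serpini1), 78.3 in serpini1-/- and 77.1 in control larvae, and was 2.32-fold higher (2.15 to 2.49). The lowest of the list were celf2, which neurons also express, at 23.04 FPKM in Tg(serpini1), 30.7 in serpini1-/- and 34.3 in control larvae, and the reticulon gene rtn4b at 101 FPKM in Tg(serpini1), 109 in serpini1-/- and 145 in control larvae. The muscle enolase gene eno3 was the most abundant and was near control, at 590.4 FPKM in Tg(serpini1), 703 in serpini1-/- and 640.3 in control larvae.

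Markers of other cells of the larva were read the same way, and the lists differed in direction. Their part in the members' ratios was not tested. In Tg(serpini1), where 47.2% of all genes were below 0, this held for 1 of 24 macrophage and microglia markers, with a median of 0.73 (0.65 less the length classes). Of the genes of DNA replication and division 0 of 35 were below 0, with a median of 0.91 (0.87). Glia and myelin markers had 8 of 24 below 0 and a median of 0.16, which was 0.08 less the length classes. For skeletal muscle genes, with 11 of 30 below 0, the median of 0.11 turned to -0.02 less the length classes. Of the photoreceptor genes, 16 of 25 were below 0, with a median of -0.18 (-0.26). The summed level of the macrophage markers was 915 FPKM in Tg(serpini1), 419 in serpini1-/- and 546 in control larvae. Most of that sum was the apolipoprotein gene apoeb, at 651 FPKM in Tg(serpini1), 317 in serpini1-/- and 403 in control larvae. The sum of the division genes was 374 FPKM in Tg(serpini1), 244 in serpini1-/- and 187 in control larvae. That of glia and myelin markers was 1015 FPKM in Tg(serpini1), 873 in serpini1-/- and 899.9 in control larvae. In serpini1-/-, 20 of 21 macrophage markers were below 0, against 54.4% of all genes, with a median of -0.42.

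**Figure D5:**
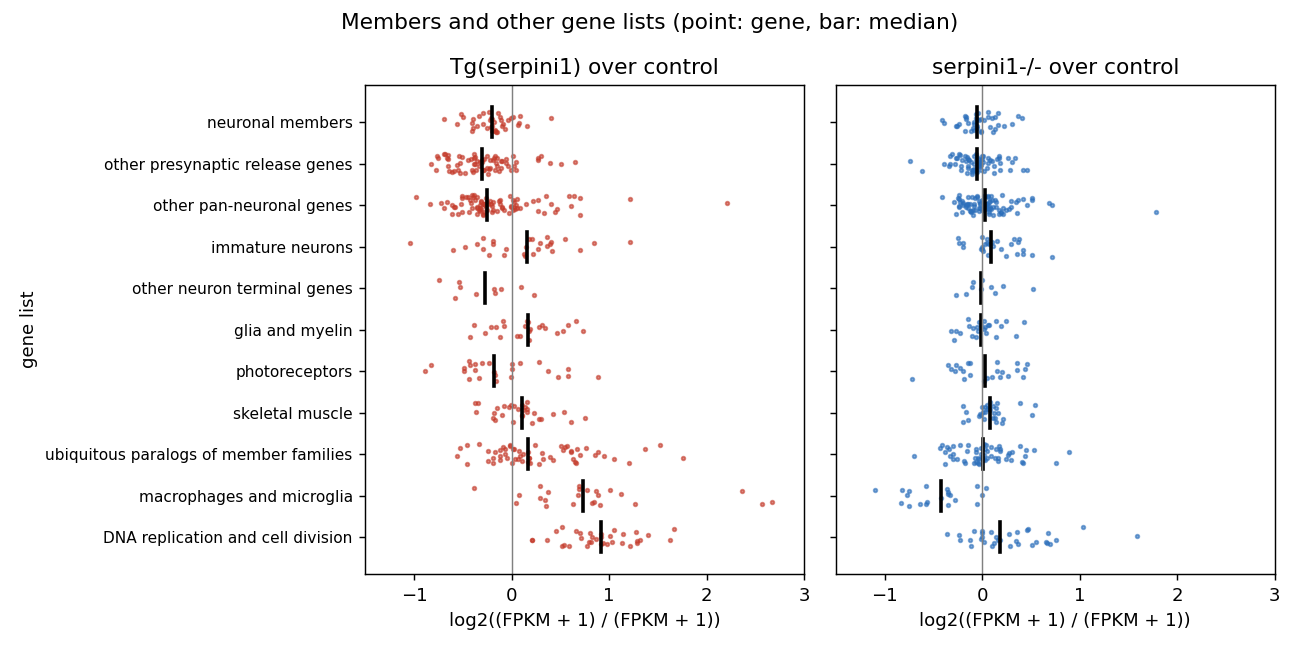
Log2((FPKM + 1) / (FPKM + 1)) of each gene (points, spread vertically for display) and the list median (bars), for Tg(serpini1) over control larvae at left and serpini1-/- over control larvae at right. At left the neuronal members and the other presynaptic, pan-neuronal and terminal lists have medians below 0, between -0.30 and -0.20, while the lists of macrophages and dividing cells have the highest medians, 0.73 and 0.91.

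The authors assigned several transcripts to most of the members, which bears on how FPKM and reads relate. A single transcript was listed for 15 of them and more than 1 for 24, with 21 each for map2, celf4 and ncam1a. For 7 members with several transcripts, the authors' deposited p-value for Tg(serpini1) against control differed from the one that the estimated reads give. The gap was more than 0.5 on the scale of a standard normal deviate. Among the 7 were map2, stmn4, eno2, cplx2, rtn1a and celf4. For stmn4 the authors' deposited table gave a p-value of 0.307, a deviate of 1.02, where its FPKM ratio gives a deviate of 2.16. For map2 the deviates were 6.17 in the authors' deposited table and 4.85 from the estimated reads. Counting intervals of these 7 genes are therefore less certain than those of sv2a, vamp2, stmn1b or nefla, which have 1 transcript and differed by 0.2 or less. Among the 15 members with 1 transcript, 10 were below 0 in Tg(serpini1), with a median of -0.14. At least 1.2-fold lower among these 15 were sv2a and vamp2, where 12 of all 39 members and 23.4% of all genes were. Of all 39 members compared, 33 were below 0, so most of the lower members had more than 1 transcript. More than 1 transcript was also listed for 24 of the 39 themselves. Of all genes, whatever their number of transcripts, 47.2% were below 0.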

How the data were processed

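RNA of whole larvae was sequenced, 1 library per group from 30 pooled larvae, grouped here by title. Per the submitters' processing notes, the tools include HISAT, StringTie and DESeq2 and the build is GRCz11, with no role or version. The authors deposited FPKM rounded to 2 decimals, per the file headers. The table of all libraries used here ends within a line and holds 19699 complete genes, none under 0.58 FPKM in serpini1-/-. The deposited comparison of Tg(serpini1) with control lists 24529 genes with FPKM, length, log2 ratio and p-value, per the file headers, and that of serpini1-/- with control 266. The authors wrote an FPKM of 0 as 0.01 there. These deposited p-values compare single libraries and served only to infer and check depth, and their log2 ratios were not used.

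Tables were joined by gene identifier (24555 genes). Genes that reached 1 FPKM in at least 1 of the compared libraries were put on log2((FPKM + 1) / (FPKM + 1)), with 1.2-fold and 2-fold rules, in Python 3.11.15 with scipy 1.17.1. Depth came from deposited p-values of genes at 0 in control, since a Poisson p-value then gives the reads of the other library. There were 1012 such genes for Tg(serpini1) and 15 for serpini1-/-, all within 0.05 of a whole number. The ratio of depths was chosen to bring these same genes near whole numbers, so that closeness is no separate check. Reads followed from FPKM, length less 100 bases and depth, and intervals are 95% Clopper-Pearson. The authors' p-value for Tg(serpini1) against control was checked in genes with at least 200 estimated reads. It was met within 0.3 of a normal deviate in 96.6% of those with 1 transcript and 64.6% of those with more. This check was not run for serpini1-/-. For serpini1-/-, the 15 genes gave only the ratio of its depth to that of control. The control depth came from the Tg(serpini1) comparison. Depths from single genes, which did not set the serpini1-/- depth, had a coefficient of variation of 31.5% over its 15 genes. The value was 3.84% over 71 genes of Tg(serpini1). Pools of larvae vary beyond counting error, and without molecular identifiers PCR copies are counted as molecules. The depth step and the 2-fold rule were tested on simulated data, with planted changes larger than 2-fold. The 1.2-fold rule and a depth fit on as few as 15 genes were not simulated.

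The members and lists were chosen with earlier results of these data known. Values of some single genes are not reported here, though counts and medians over the members include them. Of the genes in each related list, the text names the 2 highest and 2 lowest ratios of Tg(serpini1) over control among those at 5 FPKM or more in control, and the most abundant. Of the symbols in the lists, 376 matched in the files, 30 through RefSeq symbols of GRCz12tu and 3 through its synonyms, by gene identifier, and 10 did not match.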

Additional observations from a re-analysis of the deposited data

How the results depend on the processing

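The pseudocount, the floor on FPKM, 2 rescalings, the removal of elavl3, the use of 1 gene of each pair and, chosen after seeing the data, length classes and members with 1 transcript were tried. Of 266 values recomputed, 243 were scored as kept. A count had to stay within 1.5 times, any other value within its error, and a median had to keep its sign too. For a median, that error came from the spread between the genes of the set, which are not replicates. Of the 243, 36 were pair ratios recomputed as reads per full length. That step changes a pair by the same small factor in every library, so it could hardly move them. Also among the 243 are the counts of members past 2-fold, which were 0 under every setting. The tally therefore does not measure how the values would vary between pools of larvae. The members' median stayed at -0.23 to -0.14 for Tg(serpini1) over control, -0.22 to -0.10 for Tg(serpini1) over serpini1-/- and -0.07 to -0.01 for serpini1-/- over control. No member was past 2-fold under any of these settings. With a pseudocount of 5, members at least 1.2-fold higher numbered 0 in Tg(serpini1) over control, 1 in serpini1-/- over control and 0 in Tg(serpini1) over serpini1-/-, and 1 was lower in serpini1-/-. With 1 gene of each pair (27 members) those higher numbered 0, 1 and 0 in the same comparisons, and 8 were lower in Tg(serpini1) over serpini1-/-. A floor of 5 FPKM left 0 higher in that comparison. With the 15 members of 1 transcript, 10, 8 and 13 were below 0 in Tg(serpini1) over control, serpini1-/- over control and Tg(serpini1) over serpini1-/-. At least 1.2-fold lower were 2, 1 and 5 of the 15, with 0 higher in the last comparison, and fewer genes were counted there. Of all genes, 47.2%, 54.4% and 45.7% were below 0 in the main setting. At least 1.2-fold lower were 23.4%, 19.7% and 20.4% of all genes, and higher 29.1%, 15.8% and 28.6%. These shares were not recomputed under the other settings. With ratios centred on the median of genes reaching 5 FPKM, which shifted ratios by -0.03, 0.04 and -0.05, medians near 0 changed sign in serpini1-/- over control, to 0.0234 for stathmins, 0.0272 for neuron terminal genes and 0.0218 for glia (0.0152 with the floor of 5 FPKM), and in Tg(serpini1) over serpini1-/- to -0.0470 for muscle. There the RNA-binding genes came to -0.25 and the other pan-neuronal genes to -0.29. No paired analysis was possible because each group has 1 library, and for the same reason no library could be left out. The depth limits syt1b and stx1a, which have fewer than 20 estimated reads in each library.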

Other observations

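Markers of other cell types, named by the same rule, are given as values. Among glia, the glutamine synthetase gene glulb stood at 143 FPKM in Tg(serpini1), 89.4 in serpini1-/- and 85.7 in control larvae, and its paralog glula, the most abundant of the list, at 206 FPKM in Tg(serpini1), 158 in serpini1-/- and 198 in control larvae. The radial glia gene fabp7b stood at 11.9 FPKM in Tg(serpini1), 6.17 in serpini1-/- and 7.61 in control larvae. Both glulb and fabp7b were highest in Tg(serpini1), but fabp7b had 53 estimated reads there, 27 in serpini1-/- and 33 in control larvae. For fabp7b the ratio of Tg(serpini1) over control, 1.56 (0.991 to 2.48), had an interval that included 1. The glutamate uptake gene slc1a2b stood at 82.9 FPKM in Tg(serpini1), 114 in serpini1-/- and 112 in control larvae, and the myelin gene mpz at 7.99 FPKM in Tg(serpini1), 9.05 in serpini1-/- and 10.7 in control larvae, with Tg(serpini1) lowest in both.

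Photoreceptor genes also differed in both directions. The blue opsin gene opn1sw2 stood at 158 FPKM in Tg(serpini1), 94.1 in serpini1-/- and 84.8 in control larvae, and the green opsin gene opn1mw1 at 239 FPKM in Tg(serpini1), 219 in serpini1-/- and 159 in control larvae. These were highest in Tg(serpini1). The cone arrestin gene arr3b, with 55.99 FPKM in Tg(serpini1), 91.5 in serpini1-/- and 99.9 in control larvae, and the channel subunit gene cngb1a, with 6.99 FPKM in Tg(serpini1), 11.4 in serpini1-/- and 10.2 in control larvae, were lowest there. Rhodopsin (rho), the most abundant, was at 536 FPKM in Tg(serpini1), 711 in serpini1-/- and 533 in control larvae.

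In muscle, the actin gene acta1b stood at 531 FPKM in Tg(serpini1), 367 in serpini1-/- and 315 in control larvae, and the calcium store gene casq1b at 37.1 FPKM in Tg(serpini1), 34.5 in serpini1-/- and 23.9 in control larvae. The myosin heavy chain gene myhz1.3 stood at 392 FPKM in Tg(serpini1), 454 in serpini1-/- and 509 in control larvae, and its relative myhz2 at 855 FPKM in Tg(serpini1), 1089 in serpini1-/- and 1099 in control larvae. The cardiac-type actin gene actc1b, the most abundant of the list, stood at 14343 FPKM in Tg(serpini1), 16192 in serpini1-/- and 15911 in control larvae.

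Among macrophage markers, the scavenger receptor gene marco stood at 17.1 FPKM in Tg(serpini1), 3.50 in serpini1-/- and 6.57 in control larvae, and the plastin gene lcp1 at 20.3 FPKM in Tg(serpini1), 8.46 in serpini1-/- and 8.80 in control larvae. The most abundant, the apolipoprotein gene apoeb, stood at 651 FPKM in Tg(serpini1), 317 in serpini1-/- and 403 in control larvae. All 3 were highest in Tg(serpini1). The galectin gene lgals2a was at 33.9 FPKM in Tg(serpini1), 34.98 in serpini1-/- and 44.7 in control larvae, and the receptor gene csf1rb at 5.66 FPKM in Tg(serpini1), 4.03 in serpini1-/- and 5.45 in control larvae. Among division genes, the replicative helicase gene mcm4 stood at 19.5 FPKM in Tg(serpini1), 9.46 in serpini1-/- and 7.23 in control larvae. Of its partners, mcm2 stood at 13.7 FPKM in Tg(serpini1), 6.36 in serpini1-/- and 5.09 in control larvae, mcm6 at 9.47 FPKM in Tg(serpini1), 7.23 in serpini1-/- and 7.12 in control larvae and mcm7, the most abundant, at 73.8 FPKM in Tg(serpini1), 71.7 in serpini1-/- and 42.1 in control larvae. The cyclin gene ccnd1 was at 17.8 FPKM in Tg(serpini1), 15.1 in serpini1-/- and 15.3 in control larvae.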
